A study of Mus musculus with 9 samples.

Results

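The livers compared here came from C57Bl6 mice of 20 to 22 months. Chow containing PD-0332991 was fed for 2 weeks before death to the treated mice, and the untreated mice ate standard chow. The labels give the drug as 450 with the unit written mg/k. The libraries were selected by their labels: 3 treated and 3 untreated, which make up 6 of the 9 RNA-seq libraries of the series. The other 3, from untreated mice of 2 months, gave a share of the variance estimate, counted in the filter for the genes tested and entered no contrast. Total RNA of whole liver was measured, so fewer cells of a type and less RNA per cell cannot be told apart. The series title names Cdk4 and fat in the ageing liver, and the question taken from it is what a CDK4 and CDK6 inhibitor changes in the transcripts of the old liver.

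PD-0332991 is palbociclib, which blocks the kinases CDK4 and CDK6. With their D-type cyclins these kinases phosphorylate RB, and RB without that phosphorylation holds back the E2F factors that switch on genes of DNA replication and mitosis. Most hepatocytes of an adult liver do not divide, and CDK4 is also known to act there on proteins of metabolism and on chromatin partners of the C/EBP factors.

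Values are deposited as TPM, a relative abundance per transcript length that is scaled to one fixed total per library and keeps no sequencing depth, so the depth of each library is unknown. Hepatocyte markers were abundant (summed level of 16 markers 47100 to 54400 TPM in untreated and 47100 to 54100 TPM in treated livers, on a scale of 1000000), although Alb, the albumin gene, was listed at 0 in all of them. A level of 1 TPM was reached by 9794, 9870 and 9866 genes in untreated and by 9601, 9543 and 9611 genes in treated libraries, a difference of -258.3 genes (exact two-sided permutation p = 0.1, the smallest that 3 against 3 libraries allow; 0.4 after Benjamini-Hochberg adjustment over 4 library summaries). The untreated libraries were unlike each other. Untreated replicate 1 was high in acute phase genes and low in mitosis genes, and untreated replicate 3 stood apart in clock genes and metallothioneins. The values of each library are therefore given with the results they touch.

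Each gene was compared on the log2(TPM + 0.5) scale with limma, which fits each gene by itself and draws on all genes for its variance. The p-values are two-sided and adjusted by Benjamini-Hochberg over the 10161 genes tested. A gene is called changed at an adjusted p under 0.05, and all log2 fold changes are treated minus untreated, with their standard error after ±. In all, 147 genes were called, 1.45% of those tested. Of these, 62 were higher with the drug (0.61%) and 85 were lower (0.837%), and 41 differed by at least 1 on the log2 scale. The shares of 0.61% and 0.837% are the background for each count of called list members below. In every called gene the 3 treated libraries lay on one side of the 3 untreated ones. Over all genes tested, 5.72% lay above without overlap and 16.7% below, and the median log2 fold change was -0.09, with 66.7% of genes below 0 and 33.3% above. With median-of-ratios scaling that median was -0.002 and the calls were split 109 higher and 56 lower, and with quantile normalization 88 higher and 56 lower. List medians between -0.09 and 0 were at 0 or above with median-of-ratios scaling, and no called gene described below changed direction. The number of calls moved with single libraries: 85, 7 and 12 genes were called without treated replicate 1, 2 or 3, and 240, 40 and 392 without untreated replicate 1, 2 or 3. Of the 50 called genes described below, 3 were called in each of these 6 fits (Angptl4, Atg14 and Slc40a1). The other 47 kept their direction and missed the threshold in at least 1 fit, 44 of them without treated replicate 2, 42 without treated replicate 3, 32 without untreated replicate 2, 23 without treated replicate 1, 6 without untreated replicate 1 and 1 without untreated replicate 3, with limma adjusted p up to 0.158. With the 6 old libraries alone in the fit 13 of the 50 were called, and with no filter on low values 12. Median-of-ratios scaling ended 8 of the 50 calls, all of them falls, which are given with their genes.

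**Figure D1:**
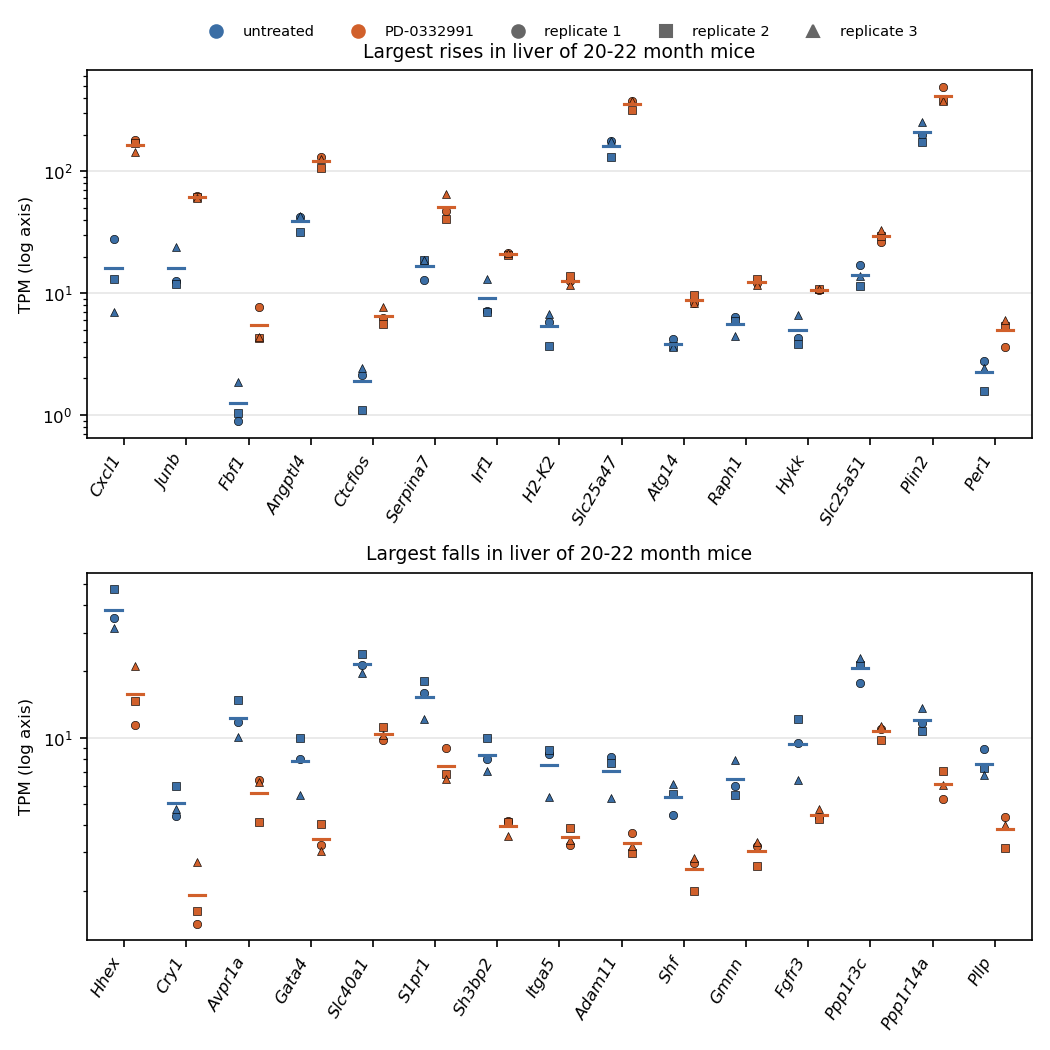
TPM (log axis) of the 15 largest rises and the 15 largest falls among called genes of at least 5 TPM in the higher group, in the 3 untreated and 3 treated livers of 20 to 22 month mice. Symbols are replicates and bars are group means, and in each gene all treated libraries lie on one side of all untreated ones.

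Transcripts of the drug's targets were not called. Cdk4, the kinase gene (chromosome 10, 127063535 to 127067288, GRCm38 as for all positions here), stood at 22.1, 27.01 and 25.2 TPM in untreated replicates 1, 2 and 3 and at 25.02, 20.6 and 21.5 TPM in treated replicates 1, 2 and 3, the order of all values below (log2 fold change -0.14 ± 0.11, limma adjusted p = 0.539). Cdk6, its relative, was too low to be tested (0.847, 0.986 and 1.070 TPM untreated and 0.520, 0.670 and 0.790 TPM treated). These ranges overlap for Cdk4 and not for Cdk6, which was lower in each treated library. The D-type cyclin genes Ccnd1 (5.46, 10.6 and 7.34 TPM against 8.898, 5.09 and 5.48 TPM) and Ccnd3 (18.9, 16.8 and 14.8 TPM against 14.999, 17.3 and 15.5 TPM) overlapped between the groups, as did Rb1 itself (0.671, 1.300 and 1.499 TPM against 1.14, 0.734 and 0.574 TPM). Their log2 fold changes were -0.24, -0.07 and -0.32, and that of Ccnd3 was 0.02 with median-of-ratios scaling. Cdk4 shares genomic ground with Tspan31, and since the counting of strands is not stated, reads of overlapping genes may be shared.

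Of 4 tested genes for inhibitors of cyclin-dependent kinases 1 fell, and 3 lay below 0. Cdkn2c encodes p18, an inhibitor of CDK4 and CDK6, and it fell from 1.75, 2.15 and 1.98 TPM to 1.15, 0.542 and 0.709 TPM (log2 fold change -0.94 ± 0.18, limma adjusted p = 0.0259). Cdkn1a encodes p21, a p53 target that halts the cycle, and it read 10.3, 12.3 and 3.71 TPM in untreated and 3.53, 1.41 and 2.43 TPM in treated livers, which did not pass (log2 fold change -1.57 ± 0.43, limma adjusted p = 0.112). Untreated replicate 3 was close to the treated libraries in Cdkn1a, and the other untreated libraries were far above them. Cdkn2a, the p16 and p19 gene associated with senescence, was below 1 TPM throughout (0.279, 0.363 and 0.469 TPM against 0.725, 0.302 and 0.684 TPM). E2f1, a factor held by RB, was at 2.05, 3.86 and 2.45 TPM and 1.51, 1.76 and 1.22 TPM (log2 fold change -0.69, limma adjusted p = 0.112), lower in each treated library. Of the 16 tested genes of the RB pathway 15 lay below 0 (all genes: 66.7%), 1 was called, and the median log2 fold change was -0.23. The call of Cdkn2c was lost in 3 of the 6 fits with a library left out (adjusted p up to 0.107).

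Genes of DNA replication and mitosis lay lower in treated livers, 14 of 15 tested members below 0 (all genes: 66.7%). Of the 15, 2 fell (all genes: 0.837%) and none rose. Without overlap 8 were lower (all genes: 16.7%), and the median was -0.71 (all genes: -0.09). Mcm2, Mcm3, Mcm4, Mcm6, Rrm2, Aurka and Cdt1 were below 1 TPM in every treated library. They passed the filter of 1 TPM in 3 libraries only through untreated libraries. Their place among the 15 is tied to that, so these counts and the median cannot serve as a test of the list. Mcm6, a subunit of the helicase that opens DNA for replication (chromosome 1, 128331575 to 128359705), fell from 1.27, 4.02 and 2.38 TPM to 0.603, 0.728 and 0.516 TPM (log2 fold change -1.36 ± 0.29, limma adjusted p = 0.0489). Aurka, a kinase of the mitotic spindle (chromosome 2, 172356190 to 172370886), fell from 1.42, 1.47 and 2.83 TPM to 0.564, 0.264 and 0.549 TPM (log2 fold change -1.30 ± 0.23, limma adjusted p = 0.0215). The treated libraries all lay below 1 TPM in both genes, and untreated replicate 2 was highest in Mcm6 while replicate 3 was highest in Aurka. Aurka overlaps Cstf1 in the genome. Rrm2, a subunit of the enzyme that makes deoxynucleotides, stood at 1.601, 6.05 and 3.27 TPM against 0.893, 0.633 and 0.952 TPM (log2 fold change -1.50 ± 0.34, limma adjusted p = 0.0571). Mcm2, of the same helicase as Mcm6, stood at 1.067, 1.78 and 2.34 TPM against 0.474, 0.631 and 0.628 TPM (log2 fold change -1.01 ± 0.22, limma adjusted p = 0.0512). Neither passed, and neither overlapped.

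Pcna, the sliding clamp of replication, was among the most abundant members and overlapped between the groups (15.9, 21.6 and 17.3 TPM against 16.5, 15.6 and 17.1 TPM). Tk1, thymidine kinase, was at 12.04, 23.4 and 23.1 TPM and 11.2, 10.3 and 12.3 TPM, so that untreated replicate 1 lay within the treated range and the other untreated libraries well above it. The same library was near the treated ones in mitosis genes, of which only 3 of 20 were high enough to be tested. Cdk1, the mitotic kinase, read 0.292, 2.58 and 1.97 TPM in untreated and 0.145, 0.188 and 0.122 TPM in treated livers. Top2a, the topoisomerase that untangles replicated chromosomes, read 0.149, 1.41 and 0.783 TPM and 0.0195, 0.0406 and 0.00708 TPM, and the proliferation marker Mki67 0.0654, 0.623 and 0.516 TPM and 0.0821, 0.0432 and 0.0435 TPM. In Cdk1 and Top2a all treated libraries lay below all untreated ones, and in Mki67 untreated replicate 1 lay inside the treated range. Summed over all 20 mitosis genes the level was 5.08, 20.8 and 21.5 TPM in untreated and 4.36, 4.89 and 3.68 TPM in treated livers. Gmnn, geminin, which limits replication to once a cycle and was outside this list, fell from 6.04, 5.48 and 7.92 TPM to 3.21, 2.604 and 3.34 TPM (log2 fold change -0.97 ± 0.15, limma adjusted p = 0.0161). With a library left out, Mcm6 stayed called in 1 fit, that without untreated replicate 1, and its adjusted p reached 0.156. It was 0.0519 with median-of-ratios scaling. The calls of Aurka and Gmnn were lost without treated replicate 2 (0.0971 and 0.0716) or 3 (0.0723 and 0.0619). Where the filter asked for 5 TPM in 3 libraries, the list's median was -0.40.

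**Figure D2:**
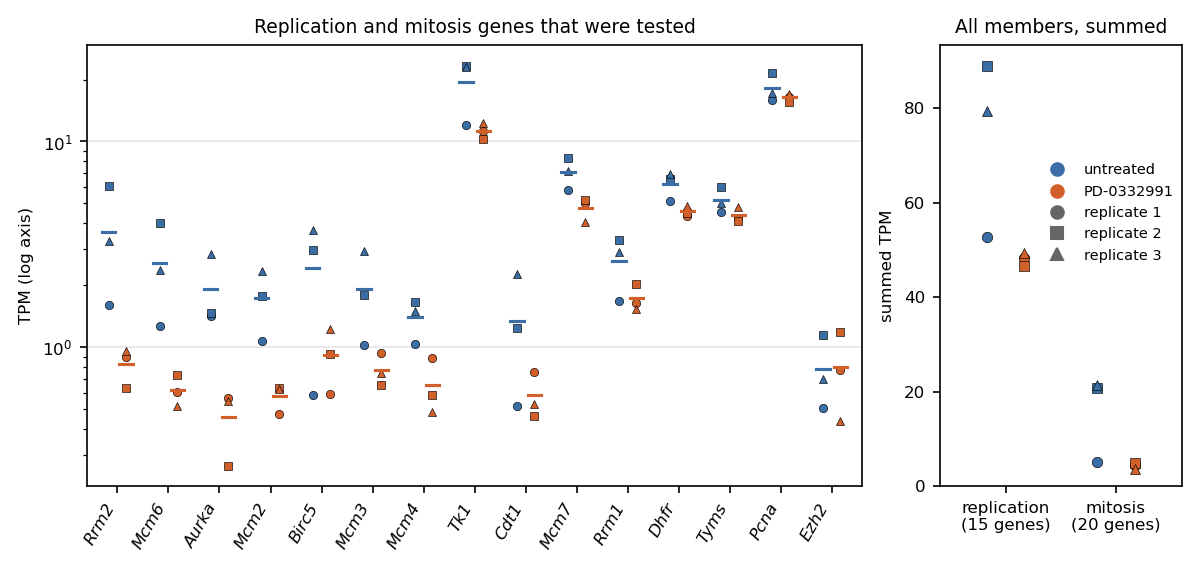
TPM (log axis) of the 15 tested replication and mitosis genes, ordered by log2 fold change, and the summed TPM of all 15 replication and all 20 mitosis genes, in 3 untreated and 3 treated livers. Untreated replicate 1 lies near the treated libraries in the summed mitosis genes (5.08 TPM against 3.68 to 4.89 TPM).

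The Mcm6 promoter is shown because Mcm6 was the called replication gene and its promoter carries E2F letters. The 250 bases before each start (RefSeq, GRCm38.p6) were searched on both strands for TTTCCCGC, TTTCGCGC, TTTGCCGC and TTTGGCGC, written here in capitals. Such a match was found in 1.86% of 32851 promoters and in 3.19% of the 9868 promoters of tested genes. In Mcm6 (chr1:128359706-128359955, minus strand) there were 3 matches, of which 2 on opposite strands overlap:
Mcm6: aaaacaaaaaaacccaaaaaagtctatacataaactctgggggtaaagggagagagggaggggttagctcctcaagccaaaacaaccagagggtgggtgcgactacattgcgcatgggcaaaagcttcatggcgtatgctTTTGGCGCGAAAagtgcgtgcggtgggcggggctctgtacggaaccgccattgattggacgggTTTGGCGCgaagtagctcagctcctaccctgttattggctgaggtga
Among the 15 tested replication and mitosis genes, 13 had a promoter in the table and 2 of those had a match. A match was found in 2 of 61 promoters of genes called higher and in 2 of 83 of genes called lower. Aurka had none within its window. A match describes letters, and binding was not measured.

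Of 20 tested liver transcription factors 2 fell (all genes: 0.837%) and none rose, and the median of the list was 0.02. Hhex, a homeobox factor needed for liver development (chromosome 19, 37434841 to 37440731), fell from 34.9, 47.3 and 31.6 TPM to 11.4, 14.7 and 21.2 TPM (log2 fold change -1.27 ± 0.23, limma adjusted p = 0.0259). Gata4, a zinc finger factor of liver and of its sinusoidal endothelium, fell from 7.95, 10.05 and 5.47 TPM to 3.25, 4.04 and 3.03 TPM (log2 fold change -1.05 ± 0.19, adjusted p by limma = 0.0215). In both genes untreated replicate 2 was highest, and Hhex was lowest in treated replicate 1. Foxa1, a pioneer factor, was uneven among untreated livers (7.79, 10.3 and 3.15 TPM) and even in treated ones (2.74, 2.92 and 3.395 TPM), which overlapped untreated replicate 3.

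Cebpb, a C/EBP factor of the acute phase and of gluconeogenesis, rose from 84.03, 70.97 and 88.6 TPM to 156, 133 and 187 TPM (log2 fold change 0.96 ± 0.14, limma adjusted p = 0.0156). All treated libraries exceeded all untreated ones by a wide gap. Cebpa, the C/EBP factor of resting hepatocytes, read 155, 142 and 164 TPM against 129.8, 132 and 129 TPM, lower in each treated library without passing (limma adjusted p = 0.244). Hdac1, a histone deacetylase found with C/EBP factors, read 11.2, 10.7 and 13.3 TPM against 7.84, 8.35 and 8.54 TPM (log2 fold change -0.48 ± 0.11, limma adjusted p = 0.0583). Ep300, the acetyltransferase p300, overlapped (1.83, 1.65 and 1.54 TPM against 1.92, 1.795 and 1.77 TPM). Cebpb was the 1 called gene of 12 tested C/EBP factors and partners, whose median was 0.08. With a library left out, the call of Cebpb was lost without treated replicate 3 (adjusted p = 0.0589), and the adjusted p of Hhex reached 0.11 and that of Gata4 0.0898.

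PPAR-alpha and its targets, which include genes of fatty acid oxidation, lipid transport and secreted factors, had 4 rises and no fall among 22 tested. Over all genes tested 0.61% were called higher and 0.837% lower. The median of the list was 0.13, with 7 members higher without overlap (all genes: 5.72%) and 1 lower (all genes: 16.7%). Ppara, the fatty acid sensing nuclear receptor itself (chromosome 15, 85734910 to 85806851), rose from 9.83, 9.83 and 13.8 TPM to 20.02, 22.4 and 19.8 TPM (log2 fold change 0.88 ± 0.13, limma adjusted p = 0.0158). Angptl4, whose secreted product blocks lipoprotein lipase, rose from 42.1, 31.6 and 43.1 TPM to 130.2, 106 and 127 TPM (log2 fold change 1.63 ± 0.18, limma adjusted p = 0.00961). Cpt1a, the gate enzyme for fatty acids entering mitochondria, rose from 31.6, 34.96 and 31.7 TPM to 53.4, 48.8 and 49.3 TPM (log2 fold change 0.62 ± 0.09, limma adjusted p = 0.0158). The untreated and treated ranges of these genes were far apart, and the spread inside each group was small. Slc25a47, a mitochondrial carrier expressed in liver, rose from 176, 130.01 and 178 TPM to 377, 320.1 and 377 TPM (log2 fold change 1.16 ± 0.15, limma adjusted p = 0.0143).

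Of 26 enzymes of mitochondrial and peroxisomal beta-oxidation, 1 rose (Cpt1a), none fell, 19 lay below 0 and the median was -0.12, beside 66.7% below 0 and a median of -0.09 over all genes tested. Ehhadh, a peroxisomal enzyme and itself a PPAR-alpha target, read 83.6, 98.05 and 88.7 TPM against 70.3, 66.1 and 66.9 TPM, lower without overlap (log2 fold change -0.41, limma adjusted p = 0.127). It did not pass. Without treated replicate 2 or 3 the calls of Ppara (adjusted p = 0.0716 and 0.0619) and Cpt1a (0.0697 and 0.0652) were lost, and that of Slc25a47 without treated replicate 3 (0.056), while Angptl4 was called in every fit.

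Storage of fat was represented by 1 call. Plin2, the main coat protein of hepatocyte lipid droplets (chromosome 4, 86626910 to 86670217), rose from 198, 174 and 256 TPM to 491, 386 and 374 TPM (log2 fold change 1.001 ± 0.15, limma adjusted p = 0.0156). The lowest treated library was above the highest untreated one, replicate 3. It was the called gene among 20 lipid droplet and lipolysis genes (median -0.08), and Bscl2, the seipin gene of droplet formation, lay the other way (27.8, 27.6 and 33.4 TPM against 23.02, 23.2 and 22.97 TPM, limma adjusted p = 0.112). None of 13 triglyceride synthesis genes was called (median -0.06). The final acyltransferase genes Dgat1 (14.6, 14.7 and 14.4 TPM against 14.01, 13.9 and 12.7 TPM) and Dgat2 (144, 144 and 139.99 TPM against 149, 126 and 137 TPM) had log2 fold changes of -0.10 and -0.06, and that of Dgat2 was 0.04 with median-of-ratios scaling. Lpin2, a phosphatidate phosphatase, stood at 15.2, 14.5 and 29.01 TPM against 51.1, 42.3 and 42.5 TPM (log2 fold change 1.26 ± 0.29, limma adjusted p = 0.0674), with untreated replicate 3 above the other untreated libraries. The call of Plin2 was lost without treated replicate 2 (adjusted p = 0.0671) or 3 (0.0527).

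None of 15 tested genes of fatty acid synthesis passed, with 10 above 0 (all genes: 33.3%), 5 below and a median of 0.25. Srebf1, the SREBP-1 gene that insulin induces, stood at 28.3, 30.2 and 63.97 TPM against 16.1, 9.26 and 13.1 TPM (log2 fold change -1.57 ± 0.32, limma adjusted p = 0.0529). Elovl6, which lengthens fatty acids, stood at 6.601, 6.46 and 8.58 TPM against 17.1, 13.5 and 14.9 TPM (log2 fold change 1.03 ± 0.22, limma adjusted p = 0.0513). Neither gene overlapped, and untreated replicate 3 held the highest Srebf1. Fasn, fatty acid synthase, and Scd1, the desaturase, overlapped (33.02, 27.4 and 35.3 TPM against 49.4, 24.4 and 31.3 TPM for Fasn, 656, 478 and 611 TPM against 1442, 562 and 843 TPM for Scd1), and treated replicate 1 was highest in both.

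Cholesterol synthesis had 1 rise and no fall among 22 genes, with 17 above 0 (all genes: 33.3%) and a median of 0.10. Sqle, squalene epoxidase, rose from 22.6, 23.05 and 24.2 TPM to 43.7, 38.7 and 29.2 TPM (log2 fold change 0.65 ± 0.13, limma adjusted p = 0.0375). Fdps, an earlier enzyme of the pathway, stood at 239.7, 194 and 278 TPM against 458, 319.6 and 359 TPM without passing (log2 fold change 0.67, limma adjusted p = 0.0555). In lipoprotein genes Apoa5, an apolipoprotein that promotes triglyceride clearance, rose from 519, 397 and 511 TPM to 918, 644 and 729.5 TPM (log2 fold change 0.68 ± 0.14, limma adjusted p = 0.0415), as the 1 called gene of 26 for fatty acid uptake and lipoproteins (median -0.02).

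Of 21 genes for bile acids and sterol export 1 fell and none rose (median -0.05). Cyp7a1, the rate-limiting enzyme of bile acid synthesis, stood at 12.7, 29.8 and 20.6 TPM against 4.04, 2.73 and 4.15 TPM (log2 fold change -2.32 ± 0.44, limma adjusted p = 0.0504). The highest treated library was well below the lowest untreated one, replicate 1. Fgfr4, the receptor through which gut FGF15 restrains Cyp7a1, fell from 15.9, 17.4 and 15.5 TPM to 9.38, 9.85 and 8.69 TPM (log2 fold change -0.77 ± 0.12, limma adjusted p = 0.016). It was the called gene of the list, and its treated values were close to each other. Abcg5, a subunit of the sterol exporter, read 18.4, 24.1 and 24.5 TPM against 13.95, 15.3 and 15.9 TPM (log2 fold change -0.54, limma adjusted p = 0.0841). Leaving out single libraries raised the adjusted p to 0.144 for Sqle, 0.123 for Apoa5 and 0.0671 for Fgfr4.

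**Figure D3:**
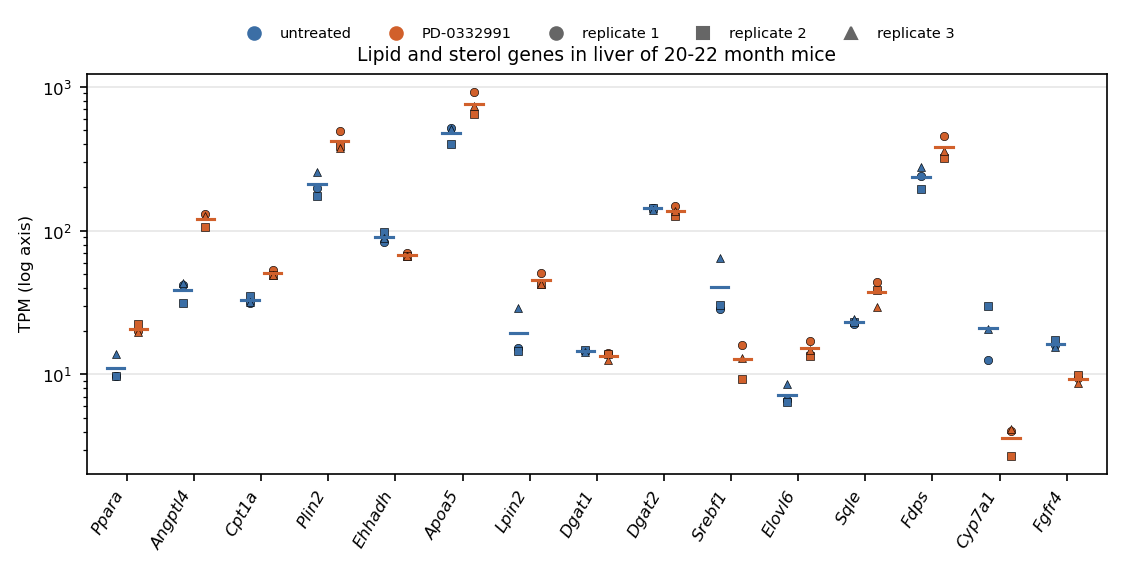
TPM (log axis) of 15 genes of fat oxidation, storage, synthesis, sterols and bile acids in 3 untreated and 3 treated livers, with bars at the group means. Angptl4, Ppara, Cpt1a and Plin2 are higher in all treated libraries, Dgat2 overlaps, and Cyp7a1 is lower in all treated libraries.

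Cxcl1, the chemokine that draws neutrophils through their receptor CXCR2, had the largest fold change of the genes described here that were called (chromosome 5, 90891245 to 90893121). It rose from 28.1, 13.2 and 7.03 TPM to 181, 169.9 and 143 TPM (log2 fold change 3.52 ± 0.42, limma adjusted p = 0.0158). The untreated values spread over several fold, with replicate 1 highest, and the treated values were close together far above them. It was the 1 called gene of 15 tested chemokines, whose median was 0.10, and 5 of which were higher without overlap (all genes: 5.72%). Cxcl10, a chemokine that interferon induces, overlapped (1.31, 0.835 and 1.68 TPM against 2.902, 2.41 and 1.26 TPM), and Ccl2, a monocyte chemokine, was at 1.99, 1.56 and 0.415 TPM against 2.25, 4.39 and 2.98 TPM. The summed level of 12 neutrophil markers was 10.3 to 27.1 TPM in untreated livers, replicate 1 highest, and 25.3 to 35.6 TPM in treated livers, and their part in the result was not tested. Of these 12 markers 3 were tested and none was called, while all 3 lay above 0 with a median of 1.16. S100a8, a tested one, was at 9.99, 3.64 and 2.24 TPM against 9.49, 10.8 and 10.5 TPM (limma adjusted p = 0.186). In it untreated replicate 1 lay inside the treated range. Retnlg, a secreted product of neutrophils, was at 2.61, 1.395 and 0.863 TPM against 4.19, 4.57 and 3.26 TPM (limma adjusted p = 0.0741), and each treated library exceeded each untreated one. The granule genes Ngp, Camp, Ltf and Mpo were at or near 0, with a highest value of 0.588 TPM in the untreated and 0.0679 TPM in the treated libraries. The call of Cxcl1 was lost without treated replicate 2 (adjusted p = 0.0716) or 3 (0.062) or untreated replicate 2 (0.0582), with the same direction.

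Irf1, an interferon regulatory factor also induced through NF-kB, rose from 7.13, 6.99 and 13.2 TPM to 21.2, 20.7 and 21.3 TPM (log2 fold change 1.23 ± 0.20, limma adjusted p = 0.0198). The treated libraries were nearly equal, and untreated replicate 3 was the nearest to them. Irf1 was the 1 called gene of 27 in the NF-kB list (median 0.03) and of 25 interferon response genes (median 0.01). Nfkbia, the inhibitor that NF-kB induces, was at 14.4, 12.2 and 20.8 TPM against 21.9, 24.1 and 27.5 TPM (limma adjusted p = 0.0879), and Myd88, an adaptor of Toll-like receptors, at 13.6, 11.01 and 7.89 TPM against 17.8, 17.3 and 16.4 TPM (limma adjusted p = 0.0608). Both were higher in each treated library. Irf7, a factor that interferon induces, lay the other way (15.2, 12.9 and 15.5 TPM against 11.7, 10.9 and 9.16 TPM, limma adjusted p = 0.153).

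The promoters of Cxcl1 and Irf1 are shown because these called genes share the kappaB consensus, searched on both strands and marked in capitals. That consensus was found in 3.9% of all promoters of this length and in 4.49% of those of tested genes. Among called genes it was found in 5 of 61 promoters of genes that rose and in 5 of 83 of genes that fell. The 11 tested NF-kB target genes with an entry had 12 promoters, 5 of them with a match. Cxcl1 and Irf1 each have 2 matches, on opposite strands, that overlap. Irf1 has 2 starts in the table, of which 1 is shown, and the other had no match. Cxcl1 lies on the plus strand at chr5:90890995-90891244 and Irf1 on the plus strand at chr11:53769764-53770013 (RefSeq, GRCm38.p6):
Cxcl1: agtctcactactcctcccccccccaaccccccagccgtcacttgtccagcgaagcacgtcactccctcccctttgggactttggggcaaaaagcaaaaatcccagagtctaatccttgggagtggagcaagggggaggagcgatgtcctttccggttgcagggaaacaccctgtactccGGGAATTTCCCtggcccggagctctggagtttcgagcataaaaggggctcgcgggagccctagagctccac
Irf1: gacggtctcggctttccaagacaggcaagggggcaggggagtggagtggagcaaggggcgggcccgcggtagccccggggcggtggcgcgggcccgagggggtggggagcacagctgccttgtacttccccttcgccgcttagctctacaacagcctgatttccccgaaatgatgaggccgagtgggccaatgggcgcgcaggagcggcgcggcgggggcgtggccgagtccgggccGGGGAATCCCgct
The capitals end 61 bases before the start of Cxcl1 and 4 bases before that of Irf1. Neither factor binding nor NF-kB activity was measured.

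The AP-1 genes and other immediate early genes had 2 rises (all genes: 0.61%) and 1 fall (all genes: 0.837%) among 17 tested (median 0.25). Junb, an AP-1 subunit, rose from 12.7, 11.9 and 23.8 TPM to 63.1, 61.4 and 60.2 TPM (log2 fold change 1.97 ± 0.32, adjusted p by limma = 0.0252), and untreated replicate 3 was above the other untreated libraries. Fosl2, a partner of JUN proteins in AP-1, rose from 1.24, 1.36 and 1.24 TPM to 2.76, 2.86 and 2.86 TPM (log2 fold change 0.90 ± 0.16, limma adjusted p = 0.0215). Klf2, a flow-sensitive factor of endothelium, fell from 5.702, 5.24 and 6.26 TPM to 3.59, 3.59 and 3.33 TPM (log2 fold change -0.64 ± 0.12, limma adjusted p = 0.0292). Dusp1, a phosphatase induced in the same early response, was at 13.1, 10.2 and 12.5 TPM against 8.87, 4.699 and 8.02 TPM, lower in each treated library without passing (limma adjusted p = 0.209). Where the filter asked for 5 TPM in 3 libraries, this list's median was -0.22. Over the fits with a library left out, the adjusted p reached 0.0847 for Irf1, 0.108 for Junb, 0.0971 for Fosl2 and 0.119 for Klf2. Klf2 was not called with median-of-ratios scaling (adjusted p = 0.0519).

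Socs3, the feedback inhibitor of IL-6 signalling, was at 6.98, 7.37 and 2.72 TPM against 18.6, 20.8 and 15.2 TPM (log2 fold change 1.69 ± 0.36, limma adjusted p = 0.0571). Stat3, the factor that IL-6 activates, was at 29.01, 26.9 and 17.4 TPM against 38.6, 38.9 and 40.3 TPM (log2 fold change 0.71 ± 0.16, limma adjusted p = 0.0553). Each treated library exceeded each untreated one in both, and neither passed. None of 18 tested genes of IL-6, LIF and STAT3 signalling was called (median 0.10). Acute phase genes, which hepatocytes secrete under IL-6, had 25 of 26 positive members above 0 (all genes: 33.3%) and none called of 31 in all. Of the 26, 3 were higher without overlap (all genes: 5.72%) and none was lower (all genes: 16.7%). The untreated livers were unlike each other in these genes. Saa1, serum amyloid A, read 6008, 222 and 123 TPM in untreated and 3099, 7204 and 2729.7 TPM in treated livers (limma adjusted p = 0.501). Untreated replicate 1 was inside the treated range and the other untreated libraries were far below it. Saa1 and Saa2 are near-identical copies whose reads may be split between them. Crp, C-reactive protein, was at 280.02, 255 and 228 TPM against 293, 395 and 351 TPM and did not pass (limma adjusted p = 0.122).

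H2-K2, of the class I antigen presentation family, rose from 5.78, 3.696 and 6.81 TPM to 12.5, 13.9 and 11.6 TPM (log2 fold change 1.18 ± 0.19, limma adjusted p = 0.0189). It resembles H2-K1 closely, so its reads are uncertain, and it was the 1 called gene of 21 in its list (median -0.08). Psmb8, a subunit of the immunoproteasome in the same list, was at 30.8, 27.8 and 31.5 TPM against 20.6, 18.5 and 19.9 TPM, lower in each treated library (limma adjusted p = 0.0556).

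The circadian clock, which ties liver metabolism to the time of day, had 1 rise and 1 fall among 18 tested genes and a median of 0.58. Cry1, a repressor of the clock, fell from 4.401, 6.02 and 4.71 TPM to 1.42, 1.62 and 2.699 TPM (log2 fold change -1.23 ± 0.22, limma adjusted p = 0.0215). Per1, which represses the clock together with CRY proteins, rose from 2.79, 1.59 and 2.45 TPM to 3.64, 5.399 and 6.03 TPM (log2 fold change 0.99 ± 0.21, limma adjusted p = 0.0424). The partners thus moved apart, each without overlap between the groups. Arntl, the activator BMAL1, was at 4.599, 5.23 and 3.36 TPM against 2.66, 0.989 and 1.82 TPM (log2 fold change -1.12 ± 0.25, limma adjusted p = 0.0512). Nr1d1, the REV-ERB-alpha gene that represses Arntl, was at 12.5, 10.6 and 41.4 TPM against 55.3, 59.3 and 58.3 TPM (log2 fold change 1.68 ± 0.45, limma adjusted p = 0.117). Neither of these passed.

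Untreated replicate 3 stood apart from the other untreated libraries in the clock. Dbp, a clock output factor with a strong daily rhythm, read 0.645, 0.576 and 14.3 TPM in untreated and 6.99, 27.7 and 21.9 TPM in treated livers, so that untreated replicate 3 lay within the treated range. Nr1d2 showed the same order, 4.51, 4.93 and 9.88 TPM against 9.57, 15.8 and 13.5 TPM. In Arntl and Nr1d1 too, untreated replicate 3 was the untreated library nearest to the treated ones. In Cry1 and Per1 it was not (4.71 TPM of Cry1, 2.45 TPM of Per1). The labels give no time of day for the death of any mouse, and its part in these results was not tested. With a library left out, the adjusted p reached 0.0971 for Cry1 and 0.158 for Per1, both without treated replicate 2.

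The 250 bases before the start of Cry1 and before 1 of the 2 listed starts of Per1 are shown because they hold an E-box. The E-box, CACGTG, is the palindrome that BMAL1 and CLOCK bind, and it is in capitals. The other listed start of Per1 had no E-box in its 250 bases. An E-box was found in 6.02% of all promoters of this length and in 8.55% of those of tested genes. Among called genes it was found in 7 of 61 promoters of genes that rose and in 7 of 83 of genes that fell. The 13 tested clock genes with an entry had 18 promoters, of which 4, in 3 genes, held an E-box. Cry1 is on the minus strand at chr10:85185055-85185304 and Per1 on the plus strand at chr11:69098699-69098948 (RefSeq, GRCm38.p6):
Cry1: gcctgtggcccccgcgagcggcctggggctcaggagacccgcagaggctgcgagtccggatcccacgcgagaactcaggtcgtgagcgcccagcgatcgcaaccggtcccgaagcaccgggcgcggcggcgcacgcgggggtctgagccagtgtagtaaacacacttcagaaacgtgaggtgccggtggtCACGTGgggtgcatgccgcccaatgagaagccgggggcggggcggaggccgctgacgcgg
Per1: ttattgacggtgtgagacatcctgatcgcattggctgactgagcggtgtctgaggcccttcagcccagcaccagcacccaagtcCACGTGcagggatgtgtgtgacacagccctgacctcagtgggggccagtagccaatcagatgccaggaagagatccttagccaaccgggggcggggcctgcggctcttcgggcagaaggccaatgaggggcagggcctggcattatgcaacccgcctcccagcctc
The same letters stood before a gene that fell and a gene that rose, and binding was not measured.

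**Figure D4:**
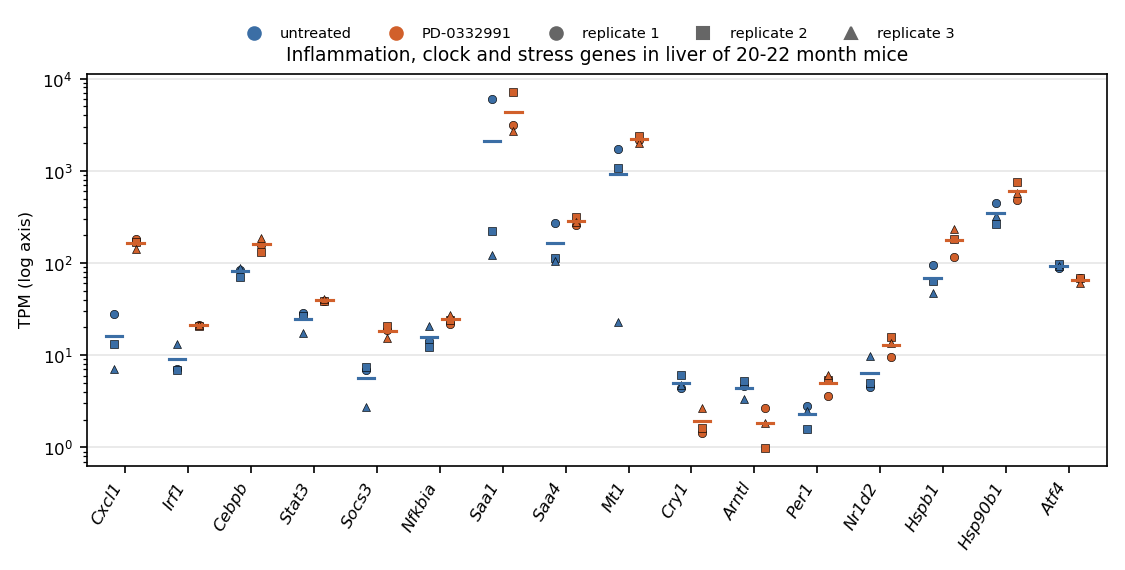
TPM (log axis) of 16 genes of inflammation, clock and protein stress in 3 untreated and 3 treated livers, with bars at the group means. Cxcl1 and Irf1 are separate between the groups, Saa1 of untreated replicate 1 lies inside the treated range, and Mt1 of untreated replicate 3 lies far below all other libraries.

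Of 21 genes of endoplasmic reticulum stress, both chaperones and signalling factors, 17 lay above 0 (all genes: 33.3%) with a median of 0.46, and none rose past the threshold. Hsp90b1, the reticulum's HSP90, was at 452, 262 and 322 TPM against 479.8, 746 and 571 TPM (limma adjusted p = 0.0969), and Pdia3, a disulfide isomerase, at 197, 136 and 149.99 TPM against 213, 270.3 and 229.7 TPM (limma adjusted p = 0.0715). In both, untreated replicate 1 was just below the lowest treated library. The 1 called member was no chaperone and lay the other way: Atf4, the transcription factor of the integrated stress response, fell from 87.2, 97.98 and 93.4 TPM to 68.8, 68.8 and 60.4 TPM (log2 fold change -0.49 ± 0.10, limma adjusted p = 0.0336). A list of heat shock and cold-induced genes had 11 of 14 tested members above 0 (all genes: 33.3%) and a median of 0.41. Its 1 call was a fall of the cold-induced Rbm3. Hspb1, the small heat shock protein HSP27, was at 94.4, 64.5 and 47.7 TPM against 116, 184 and 232 TPM (log2 fold change 1.36 ± 0.30, limma adjusted p = 0.0639). Rbm3, an RNA-binding protein induced by cold, fell from 23.5, 22.4 and 22.04 TPM to 11.4, 17.04 and 15.2 TPM (log2 fold change -0.64 ± 0.14, limma adjusted p = 0.049). Cirbp, another cold-induced protein, was lower in each treated library (6.46, 8.62 and 16.4 TPM against 5.72, 5.13 and 5.57 TPM) without passing. The adjusted p reached 0.138 for Atf4 and 0.121 for Rbm3 with a library left out, and with median-of-ratios scaling both calls were lost (0.0773 and 0.0965).

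Autophagy, the breakdown of cell contents in lysosomes, had 2 rises (all genes: 0.61%) and no fall among 25 tested genes and a median of -0.01. Without overlap 9 members were higher (all genes: 5.72%) and 4 lower (all genes: 16.7%). Atg14, which directs the lipid kinase complex that starts autophagosomes (chromosome 14, 47540893 to 47568434), rose from 4.24, 3.68 and 3.63 TPM to 8.31, 9.75 and 8.35 TPM (log2 fold change 1.09 ± 0.12, limma adjusted p = 0.00961). Ulk1, the kinase at the head of the pathway, rose from 10.2, 11.4 and 10.1 TPM to 16.2, 14.2 and 16.8 TPM (log2 fold change 0.55 ± 0.11, limma adjusted p = 0.0313). Becn1 and Pik3c3, whose products sit in the same complex as ATG14, overlapped between the groups (24.2, 27.7 and 24.1 TPM against 25.1, 21.4 and 24.7 TPM, and 3.39, 3.82 and 4.47 TPM against 3.88, 3.097 and 4.71 TPM). Atg14 was called in every fit, and the adjusted p of Ulk1 reached 0.132.

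Slc40a1, ferroportin, the protein through which cells export iron (chromosome 1, 45908070 to 45926532), fell from 21.5, 24.1 and 19.6 TPM to 9.77, 11.2 and 10.3 TPM (log2 fold change -1.02 ± 0.13, limma adjusted p = 0.0116). The lowest untreated value was well above the highest treated one, and the gene was called in every fit. It was the 1 called gene of 20 for iron handling (median -0.06). Tfrc, the transferrin receptor that imports iron, was at 5.52, 6.76 and 6.11 TPM against 4.09, 3.603 and 3.38 TPM (limma adjusted p = 0.0587), and Slc39a14, an importer of iron and zinc, at 44.1, 37.4 and 16.5 TPM against 63.5, 65.4 and 55.6 TPM (limma adjusted p = 0.142). Hamp, the hepcidin gene whose product degrades ferroportin protein, overlapped (3277, 2075 and 4139 TPM against 4406, 3695 and 4501 TPM). Ferroportin is also a marker of Kupffer cells, the liver's macrophages, whose 22 markers summed to 412 to 543 TPM in untreated and 355 to 385 TPM in treated livers. Of 21 tested Kupffer cell genes ferroportin was the 1 called, and the median was -0.29. Without overlap 8 were lower (all genes: 16.7%) and 1 was higher (all genes: 5.72%), and by sign 18 lay below 0 (all genes: 66.7%) and 3 above. The defining Clec4f was at 22.1, 19.4 and 25.3 TPM against 17.6, 18.6 and 18.1 TPM (log2 fold change -0.29). Vsig4 and Cd68, of the same list, had larger differences than Clec4f (log2 fold changes -0.54 and -0.4, limma adjusted p = 0.15 and 0.157). Both were lower in each treated library without passing. Slc40a1 (log2 fold change -1.02) was the lowest of the list, and Hmox1 (0.81) the highest. The part of Kupffer cells in the result was not tested.

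Metallothioneins, which bind zinc and copper, were uneven: Mt1 read 1706, 1057 and 22.9 TPM in untreated and 2153, 2409 and 2005 TPM in treated livers, and untreated replicate 3 was far below all others (limma adjusted p = 0.434). None of 19 metallothionein and antioxidant genes was called (median -0.05). Of 14 tested p53 targets none was called either (median -0.15). Fas, the death receptor among them, was at 11.8, 9.44 and 9.19 TPM against 13.2, 18.8 and 17.5 TPM, higher in each treated library (limma adjusted p = 0.0512), while Cdkn1a lay lower.

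Genes of insulin action, glucose production and glycogen had 2 falls (all genes: 0.837%) and no rise among 24 tested. Without overlap 5 were higher (all genes: 5.72%) and 5 lower (all genes: 16.7%). Pik3r1, the regulatory subunit of PI3 kinase, fell from 8.299, 7.803 and 5.55 TPM to 4.39, 4.12 and 4.21 TPM (log2 fold change -0.68 ± 0.15, limma adjusted p = 0.0442). Ppp1r3c, which targets a phosphatase to glycogen, fell from 17.8, 21.4 and 23.1 TPM to 10.9, 9.79 and 11.3 TPM (log2 fold change -0.92 ± 0.18, limma adjusted p = 0.0342). Its hepatic relative Ppp1r3b was at 59.8, 52.4 and 31.9 TPM against 23.4, 20.7 and 22.1 TPM, also lower in each treated library (limma adjusted p = 0.103). Pck1, the rate-limiting enzyme of gluconeogenesis, was at 418, 235 and 797 TPM against 866, 813 and 1067 TPM (limma adjusted p = 0.192), with a wide spread among untreated livers. In the growth hormone and IGF axis Igfbp2, which binds insulin-like growth factors, fell from 552, 573 and 602 TPM to 326, 422 and 439 TPM (log2 fold change -0.55 ± 0.12, limma adjusted p = 0.0424). Igfbp1, a binding protein that insulin represses, was at 6.71, 8.23 and 25.3 TPM against 68.1, 30.6 and 41.1 TPM (log2 fold change 1.92 ± 0.66, limma adjusted p = 0.2). The IGF binding proteins thus lay on opposite sides, and only Igfbp2 passed, as 1 of 17 genes of the axis.

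Receptors on hepatocytes had 3 falls (all genes: 0.837%) and no rise among 18 tested (median -0.05). Fgfr4 above was among the falls. Avpr1a, the vasopressin receptor of liver, fell from 11.8, 14.8 and 10.1 TPM to 6.38, 4.12 and 6.26 TPM (log2 fold change -1.07 ± 0.18, limma adjusted p = 0.0198). Fgfr3, another receptor of fibroblast growth factors, fell from 9.48, 12.2 and 6.42 TPM to 4.35, 4.24 and 4.71 TPM (log2 fold change -0.96 ± 0.19, limma adjusted p = 0.0342). Erbb3, a receptor of neuregulins, was at 5.12, 3.71 and 10.03 TPM against 11.03, 10.8 and 11.2 TPM, higher in each treated library without passing (limma adjusted p = 0.173). Leaving out single libraries raised the adjusted p to 0.0716 for Avpr1a, 0.134 for Fgfr3, 0.152 for Pik3r1, 0.141 for Ppp1r3c and 0.118 for Igfbp2. Median-of-ratios scaling ended the calls of Fgfr3 (0.0522), Pik3r1 (0.0761) and Igfbp2 (0.0855).

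Slc38a2, a transporter of neutral amino acids, rose from 11.9, 12.2 and 17.3 TPM to 25.2, 28.1 and 26.2 TPM (log2 fold change 0.94 ± 0.15, limma adjusted p = 0.0161), the 1 call of 33 genes of the urea cycle and amino acids (median -0.11). Subunits of the respiratory chain were not called, and 17 of 18 lay below 0 with a median of -0.18 (all genes: 66.7% below 0, median -0.09). Atp5a1, of the ATP synthase, was at 378, 386 and 413 TPM against 343, 325 and 325 TPM (limma adjusted p = 0.161). Ribosomal protein genes, a group of steady high expression, had none called of 18 and a median of -0.02.

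Drug and toxin metabolism had 2 falls (all genes: 0.837%) and no rise among 36 tested genes and a median of -0.15. Without overlap 10 were lower (all genes: 16.7%) and 1 was higher (all genes: 5.72%). Gstp1, a glutathione transferase, fell from 1790.4, 1886 and 1835 TPM to 1026, 876 and 1219 TPM (log2 fold change -0.83 ± 0.14, limma adjusted p = 0.0193). Cyp2d9, a male-biased cytochrome P450, fell from 752, 851 and 759 TPM to 537, 597 and 577 TPM (log2 fold change -0.46 ± 0.10, limma adjusted p = 0.0395). Both belong to families of close copies, so their reads may be split among relatives. Cyp1a2, a P450 of the pericentral zone, was at 282, 339 and 377 TPM against 222, 249 and 262 TPM (limma adjusted p = 0.109). The adjusted p reached 0.0792 for Gstp1, 0.131 for Cyp2d9 and 0.0739 for Slc38a2 with a library left out, and that of Cyp2d9 was 0.0797 with median-of-ratios scaling.

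By zone of the lobule, genes around the portal vein had 2 falls (all genes: 0.837%) among 13 tested and a median of -0.25. Without overlap 7 were lower (all genes: 16.7%) and 1 was higher (all genes: 5.72%). Cdh1, the adhesion protein E-cadherin, fell from 5.45, 5.504 and 5.85 TPM to 3.897, 2.12 and 2.57 TPM (log2 fold change -0.89 ± 0.17, adjusted p by limma = 0.0313), and Igfbp2 was the other. Around the central vein none of 14 genes was called (median -0.09). Glul, glutamine synthetase, the classic pericentral gene, was at 238, 221 and 245 TPM against 174, 192 and 173 TPM, lower in each treated library (log2 fold change -0.39, limma adjusted p = 0.0555).

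Of 27 tested genes of sinusoidal endothelium 2 fell (all genes: 0.837%), and the median was -0.16. Without overlap 5 were lower (all genes: 16.7%) and 1 was higher (all genes: 5.72%). S1pr1, the receptor for sphingosine-1-phosphate, fell from 16.03, 17.96 and 12.1 TPM to 8.995, 6.81 and 6.45 TPM (log2 fold change -0.997 ± 0.16, adjusted p by limma = 0.0172), and Gata4 was the other. The 30 markers summed to 170 to 197 TPM in untreated and 144 to 164 TPM in treated livers, and the part of endothelial RNA in these falls was not tested. Itga5, the integrin subunit that binds fibronectin, fell from 8.39, 8.77 and 5.38 TPM to 3.24, 3.87 and 3.43 TPM (log2 fold change -0.97 ± 0.17, limma adjusted p = 0.0215), the 1 call of 8 tested integrins. Stellate cell and matrix genes had none called of 27 (median -0.01), and their markers summed to 110 to 156 TPM and 99.9 to 145 TPM. Cholangiocyte markers summed to 407 to 488 TPM and 430 to 568 TPM, and lymphocyte markers to 3.66 to 10.2 TPM and 3.81 to 6.58 TPM. The adjusted p reached 0.122 for Cdh1 (0.0535 with quantile normalization), 0.0746 for S1pr1 and 0.0794 for Itga5 with a library left out.

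**Figure D5:**
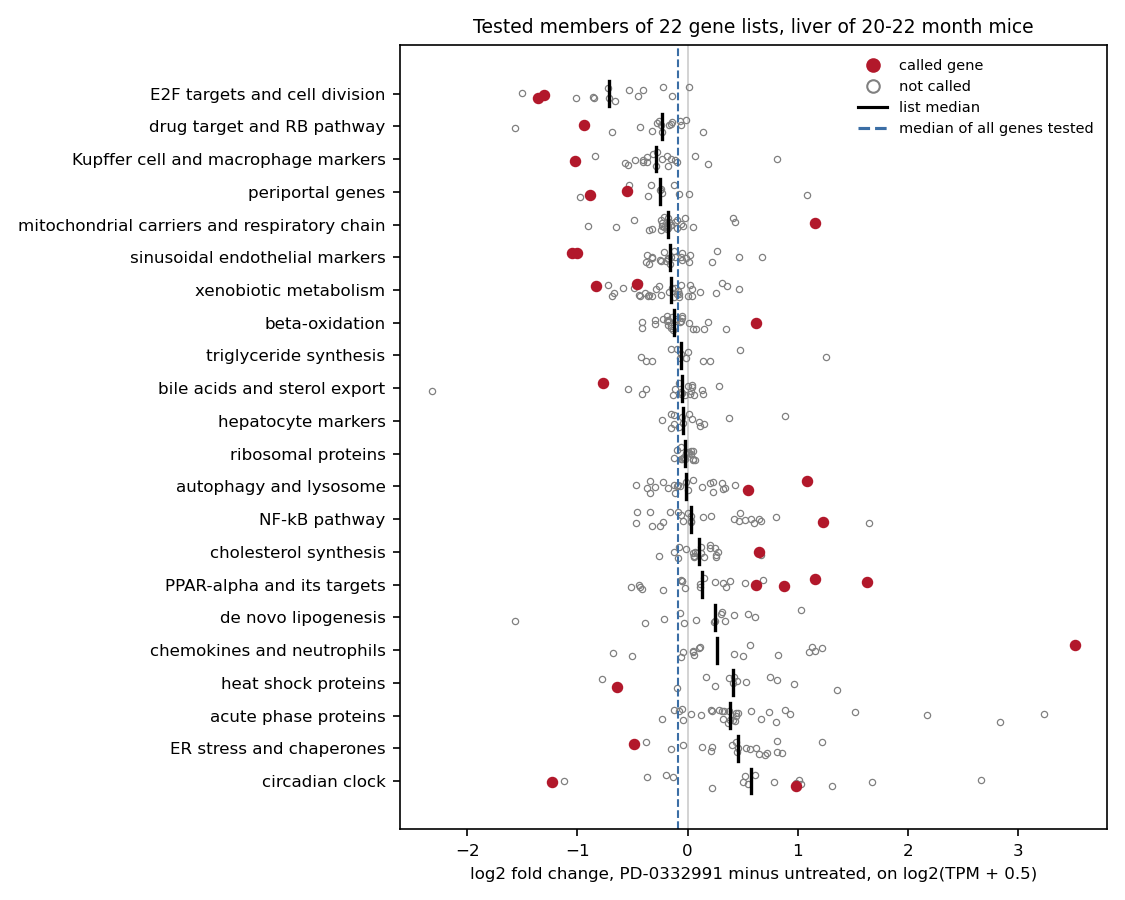
Log2 fold change (treated minus untreated, log2(TPM + 0.5) scale) of the tested members of 22 gene lists, with a bar at each list median, filled points for called genes and a dashed line at the median of all genes tested (-0.09). The replication and mitosis genes have the lowest of these medians (-0.71) and the circadian clock the highest (0.58), and most points of every list are not called. Several of the replication and mitosis genes passed the filter only through untreated libraries.

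Serpina7, the thyroxine-binding globulin made by liver, rose from 12.9, 18.6 and 18.6 TPM to 47.7, 41.01 and 64.97 TPM (log2 fold change 1.58 ± 0.24, limma adjusted p = 0.0185). It was the 1 call of 30 genes for serpins, coagulation and complement (median -0.06). Other large changes were in genes of no list. Hykk, a hydroxylysine kinase, rose from 4.29, 3.87 and 6.69 TPM to 10.6, 10.8 and 10.8 TPM (log2 fold change 1.08 ± 0.16, limma adjusted p = 0.0158). Slc25a51, the mitochondrial NAD carrier, rose from 17.1, 11.5 and 13.9 TPM to 26.2, 29.3 and 32.9 TPM (log2 fold change 1.04 ± 0.16, adjusted p by limma = 0.0161). In Hykk and Slc25a51 the lowest treated value was above the highest untreated one, and the treated values of Hykk were nearly equal. Fbf1, a protein of cilia and centrioles, rose from 0.889, 1.04 and 1.87 TPM to 7.705, 4.29 and 4.38 TPM (log2 fold change 1.75 ± 0.31, adjusted p by limma = 0.0246), and its untreated level was low. Raph1, a regulator of the actin skeleton, rose by 1.09 on the log2 scale (limma adjusted p = 0.0143) and the noncoding Ctcflos by 1.58 (limma adjusted p = 0.0198), and both overlap other gene models.

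Among the falls outside the lists were Sh3bp2, a signalling adaptor of immune cells and osteoclasts (7.98, 10.05 and 7.05 TPM to 4.16, 4.12 and 3.56 TPM, log2 fold change -0.98, adjusted p by limma = 0.0156), and Ppp1r14a, an inhibitor of myosin phosphatase in smooth muscle (11.7, 10.7 and 13.7 TPM to 5.25, 7.02 and 6.105 TPM, log2 fold change -0.92, limma adjusted p = 0.0156). Adam11, Shf and Pllp had log2 fold changes of -0.97, -0.97 and -0.91 (limma adjusted p = 0.0198, 0.0215 and 0.0178). All treated libraries were below all untreated ones in each of these genes. With a library left out, the adjusted p of the genes of these last paragraphs reached at most 0.1, for Fbf1 without untreated replicate 2.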

How the data were processed

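RNA of whole liver was sequenced as TruSeq paired-end libraries on a HiSeq2500, per the labels. The authors deposited 1 table per library with TPM for 23444 gene symbols. The submitters' processing notes name kallisto and mm10, while the version of kallisto, its annotation and its strand setting are not stated there or in the labels. TPM keeps no read depth, so no count test was possible. The listed genes held 54.7 to 57.4% of the TPM scale of 1000000 in the 6 libraries of old mice. Symbols turned into dates were kept (23) except 4 rows that stood for more than 1 gene.

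From these values log2(TPM + 0.5) was computed for 10161 genes with at least 1 TPM in at least 3 of the 9 libraries, which left out the 6604 rows at 0 throughout. This scale understates the change of low genes. limma 3.58.1 in R 4.3.3 was fitted to all 9 libraries with group as the term, a mean-variance trend and robust estimation (6 residual degrees of freedom), and the contrast was treated minus untreated old mice. The fit was tested on simulated data. The labels do not say that libraries are separate mice, so p-values measure the spread between libraries, which may be technical.

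The members, the 44 gene lists and the tests were chosen with earlier results of these data known. Genes named are the 15 largest rises and falls among called, annotated genes of at least 5 TPM in the higher group without overlap, the called members of each list with up to 3 of the next lowest p, a fixed set (Cdk4, Cdk6, D-type cyclins, Rb1, Cdkn1a, Cdkn2a, Mki67, Cebpa, Cebpb, Ep300, Hdac1, Dgat1, Dgat2, Plin2), and partners of these in the same group of genes. Some genes that this rule names are not reported here. Of 911 list members 909 were listed. Promoters are the 250 bases before RefSeq starts on GRCm38.p6. Alternatives were other pseudocounts, filters, scalings and variance settings, a replicate block and leaving out each library.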

Additional observations from a re-analysis of the deposited data

How the results depend on the processing

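The number of called genes was within 1.5 times of 147 with pseudocounts of 0.1 (142) and 1 (148), with a filter of 5 TPM (120) or over the 6 libraries alone (155), with median-of-ratios (165) or quantile scaling (144), and without trend and robust estimation (134). It was 29 with no filter on low values (16836 genes tested), 25 with the 6 old libraries alone in the fit and 271 with array weights. The cause of these 3 counts was not tested. With 1 library left out the number of called genes ranged from 7 to 392. Replicate numbers are shared between the groups, but same-numbered libraries deviated together with r of -0.1, 0.06 and 0.17, and untreated replicate 1 correlated best with treated replicate 2 (0.22), so the numbers were not taken as pairs, and a replicate block gave 60 calls (31 higher, 29 lower). The difference in genes at 1 TPM or more ranged from -283 to -237.3 with a library left out. The log2 fold change turned positive for Ccnd3 with median-of-ratios scaling (0.0211) and without untreated replicate 1 (-0.157 to 0.0112 over the fits with a library left out), and for Dgat2 with that scaling (0.0397) and without treated replicate 2 (-0.117 to 0.00393). Of the other genes not called, Becn1 was at 0.00146 and Pik3c3 at 0.0763 with that scaling, Pik3c3 at 0.1 with quantile normalization, and at 0.109 with array weights, all turned from negative to positive. With a library left out the log2 fold change ranged from -0.194 to 0.307 for Fasn and from -0.14 to 0.128 for Pik3c3. Of the 50 called genes described, 42 were called with median-of-ratios scaling, 43 with quantile scaling and 25 with the block. The depth of the libraries is unknown, so no limit from counting can be given for low genes.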
